A study of Drosophila melanogaster with 24 samples.

Results

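A set of 85 unnamed genes was described, chosen because their transcript levels in whole heads of male *Drosophila melanogaster* differed between day 30 and day 3 post eclosion in AD flies and differed little between those ages in WT flies. A gene counted as unnamed when its deposited symbol was CG followed by digits, a number from the annotation of the fly genome sequence, and such a symbol was held by 6937 of the 13700 annotated genes with a value above 0 somewhere in the series. For each gene the mean of log2(FPKM + 1) was taken over the replicates of a group, where FPKM is the number of sequenced fragments scaled to transcript length and library size. A gene was a member when its day 30 mean lay at least 0.7 above or below its day 3 mean in AD heads and less than 0.3 above or below it in WT heads. The limit in AD heads was passed by 838 unnamed genes, and the limit in WT heads left 85 of them, 62 with higher values at day 30 (called rising members here) and 23 with lower values (falling members). The members were thus chosen by the FPKM values of days 3 and 30, which are given as a description, and tests were run only on days 10 and 20.

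The AD groups were flies that the sample labels call hAPP transgenic and the study's methods describe as expressing the human amyloid beta peptide from a UAS transgene in a white-mutant background, switched on by the elav-GAL4 driver, which is active in neurons. The WT groups, labelled wild type, came from the white-mutant strain crossed to the same driver line, so that both genotypes carried elav-GAL4 and only AD flies carried the transgene. RNA-Seq of heads was available at days 3, 10, 20 and 30 in both genotypes, with 3 replicates for each of the 8 groups. The labels do not say whether replicates came from separate cultures, so the p-values below measure only the spread between these libraries. In whole heads, fewer cells of a type and less RNA per cell cannot be told apart.

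A CG number says only that a gene model was predicted from the genome sequence, and a gene keeps it as its working symbol until it is named. Many such genes nevertheless encode enzymes that are well known from other animals, and others have no known relative. Serine, glycine and threonine feed the folate cycle, which carries single carbon units for the synthesis of purines and methionine, and the fly's fat body, the counterpart of liver and adipose tissue that also lies in the head, carries out much of this metabolism. A whole head also holds the eyes, the brain, glia, muscle and blood cells, and a level measured in it is the sum over all of them.

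Total expected counts were 21009651 to 26463849 in 6 libraries (replicate 1 of days 3, 10 and 20 in both genotypes) and 12796861 to 16054927 in the other 18. The genes that the authors added have different lengths in these sets of libraries, which marks them as separate processing runs, and day 30 lies in the second run alone. The eye colour gene w had 75.99 to 114.9 FPKM in AD heads of days 3, 10 and 20 and 85.6 to 85.8 FPKM in AD day 30 replicates 1 and 2, against 25.4 to 46.8 FPKM in WT heads. The library labelled AD day 30 replicate 3 had 41.6 FPKM of w and so lay in the WT range, and the day 30 summaries of the members are given with and without it. At day 30, 26 of 62 rising members (41.9%) and 9 of 23 falling members (39.1%) were nearer in that library to the WT day 30 mean than to the mean of AD day 30 replicates 1 and 2, against 50.2% of all listed genes. The rule used these day 30 values, that library among them, so the members' shares cannot test its label. Among the 3 AD day 30 libraries that library was the one that differed least from the AD day 3 mean for 48 of the 85 members.

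WT day 3 replicate 1 stood apart by transcripts of the male reproductive tract. The summed FPKM of 10 marker genes of that tract was 760.7 there, against 0.44 to 61.3 in the other 23 libraries (median 1.83), with 9 of the 10 markers highest of all libraries and none at 0. Of the 62 rising members 12 (19.35%) had their highest value in that library, as had 20.65% of all listed genes. Without that library the WT difference between day 30 and day 3 of those 12 members was 0.29 to 1.49 (median 0.67), and 1 of them, *CG17450*, still met the rule. The yolk protein gene *Yp1*, read as a check of sex, had 25.8 FPKM in WT day 3 replicate 2. The other 23 libraries had 0.36 to 11.33 FPKM of it. The sum of 3 yolk markers in WT day 3 replicate 2 was 118.9 FPKM, below the 137.7 FPKM of the library labelled AD day 30 replicate 3. Neuronal markers summed to 680.5 to 815.9 FPKM in AD day 30 heads, against 962.0 to 1006 FPKM in WT day 30 heads, and all 11 were detected. Head fat body markers, 7 of 8 found, summed to 2655 to 3764 FPKM in AD heads at day 30 and 910.8 to 1555 FPKM at day 3, against 2203 to 2516 FPKM and 835.2 to 1976 FPKM in WT heads at those ages. The part of these differences in the members' values was not tested.

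The rising members had a median AD difference of 0.86 between day 30 and day 3 on the log2(FPKM + 1) scale (0.70 to 1.34), against a median of 0.08 in WT heads. All 3 AD day 30 libraries lay above all 3 AD day 3 libraries in 49 of 62 (79.0%), against 21.2% of all listed genes, which follows in part from the rule. All 3 lay above every WT day 30 library in 30 of 62 (background 10.1%), and below in 1. The falling members had a median AD difference of -0.90 (-3.39 to -0.71), against -0.12 in WT heads, with the AD libraries of day 30 all below those of day 3 in 14 of 23 (background 8.29%) and below all WT day 30 libraries in 12 of 23 (background 8.79%). Without the library labelled AD day 30 replicate 3 the median AD differences of the same members were 0.92 in rising and -0.96 in falling members. The AD day 30 libraries then lay above those of AD day 3 in 55 of 62 rising members (background 27.7%) and above those of WT day 30 in 45 (background 19.3%). They lay below those of AD day 3 in 16 of 23 falling members (background 11.6%) and below those of WT day 30 in 16 (background 15.7%). As the plot of WT against AD differences shows, the members are the edge of a continuous cloud. The CG symbol did not set them apart from named genes, since the same limits were met in the rising direction by 0.894% of unnamed and 0.887% of other genes, and in the falling direction by 0.332% and 0.281%.

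**Figure D1:**
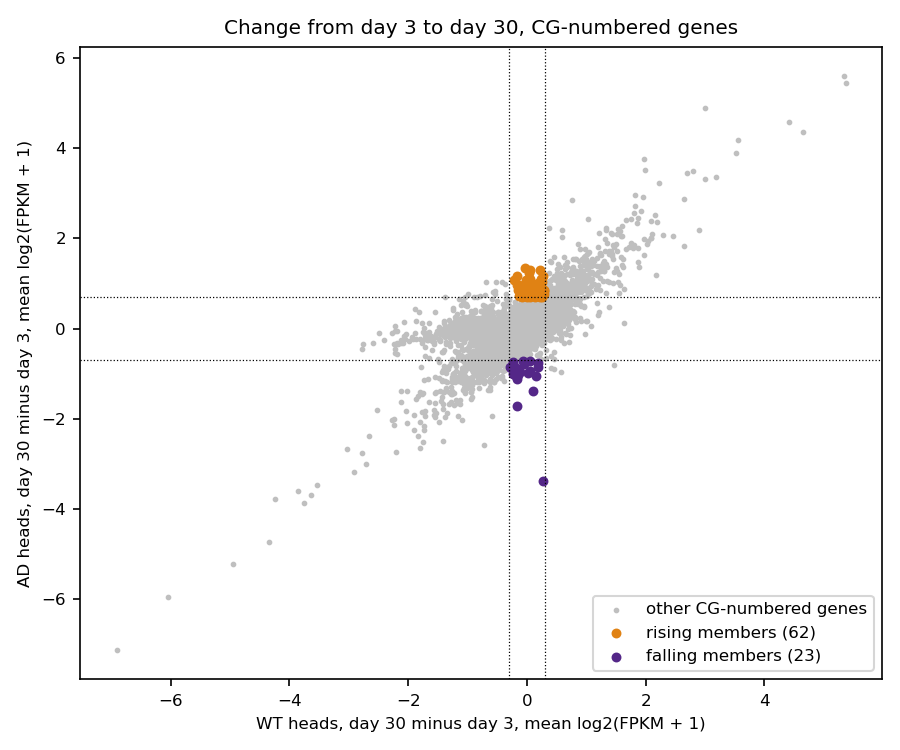
Difference between day 30 and day 3 in mean log2(FPKM + 1) for all CG-numbered genes, with WT heads on the x axis, AD heads on the y axis and dotted lines at 0.7 and 0.3 on either side of 0. The 62 rising members (orange) reach 1.34 and the 23 falling members (purple) reach -3.39 in AD heads.

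The members' AD minus WT difference was also taken at each age, with days 3 and 30 as a description, since the rule used them. Across days 3, 10, 20 and 30 the median AD minus WT difference of rising members was -0.29, 0.05, 0.09 and 0.46. In falling members it was 0.23, 0.02, -0.08 and -0.57. The day 30 medians were 0.49 and -0.53 without the library labelled AD day 30 replicate 3. At day 3 the AD mean lay below the WT mean in 47 of 62 rising members (75.8%, background 63.4%) and above it in 17 of 23 falling members (73.9%, background 34.5%), which the rule favours. Without WT day 3 replicate 1 the day 3 median of rising members was -0.08, and the AD mean lay below the WT mean in 37 of 62, or 59.7%, against 39.7% of all listed genes. In falling members the median was then 0.35, and the AD mean lay above the WT mean in 18 of 23 (78.3%, background 54.2%). Within AD heads, the median difference from day 3 in rising members was 0.45 at day 10 and 0.54 at day 20, and the step between day 30 and day 20 had a median of 0.34. In falling members these values were -0.36, -0.55 and -0.34. The day 30 mean was the highest of the 4 AD means in 52 of 62 rising members (83.9%, background 35.5%). It was the lowest in 18 of 23 falling members (78.3%, background 19.3%), and the rule favours both counts. They were also 52 and 18 without the library labelled AD day 30 replicate 3 (backgrounds 38% and 20.5%). The medians of the step between day 30 and day 20 were then 0.39 and -0.33.

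**Figure D2:**
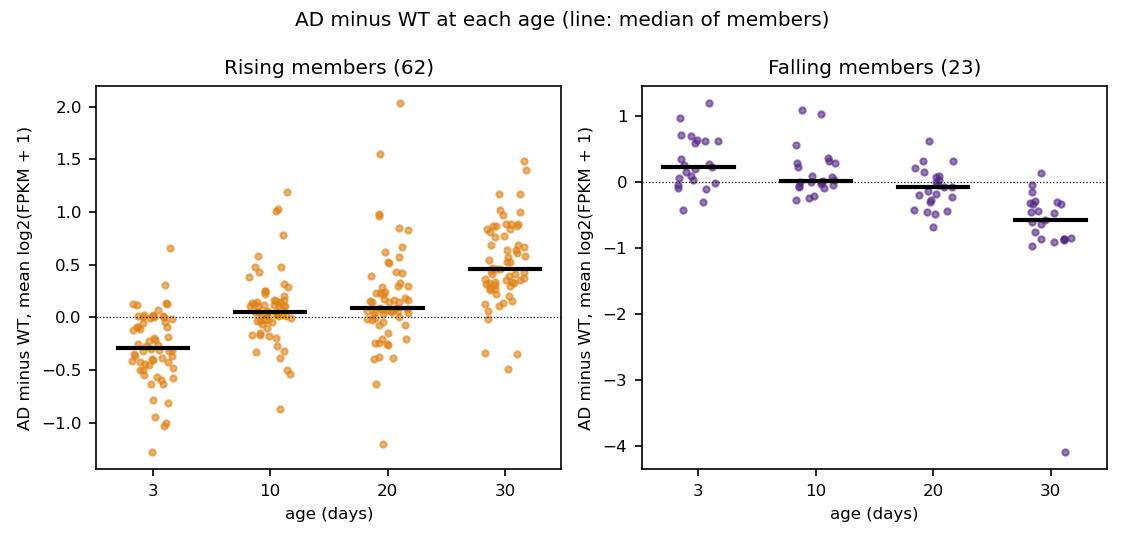
AD minus WT difference in mean log2(FPKM + 1) at each age for the rising (left) and falling (right) members, where each point is a gene and the bar is the median. The medians of rising members run from -0.29 at day 3 to 0.46 at day 30 and those of falling members from 0.23 to -0.57, and days 3 and 30 were used to choose the genes.

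The largest group with a known role was 12 rising members that encode enzymes of amino acid, one-carbon and nucleotide metabolism, 9 for amino acids and folate-bound carbon and 3 for nucleotides. No falling member had such a role. The share of such enzymes among all unnamed genes was not determined. These counts thus do not show whether such enzymes were more frequent among the members than elsewhere. All 12 were listed in all 24 libraries, with mean levels of 5.54 to 321 FPKM. Their median AD difference between day 30 and day 3 was 0.87 and their median WT difference 0.08. Days 3 and 30 chose these genes too, so the following counts are a description. In all 12 the AD day 30 libraries lay above the AD day 3 libraries (background 21.2%), and in 11 above all WT day 30 libraries (background 10.1%). Without the library labelled AD day 30 replicate 3 the median AD difference was 0.84, and in all 12 the AD day 30 libraries lay above those of AD day 3 (background 27.7%) and WT day 30 (background 19.3%). Across days 3, 10, 20 and 30 their median AD minus WT difference was -0.16, 0.15, 0.05 and 0.61, and at days 10 and 20 no gene of the 12 had AD and WT libraries that did not overlap.

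**Figure D3:**
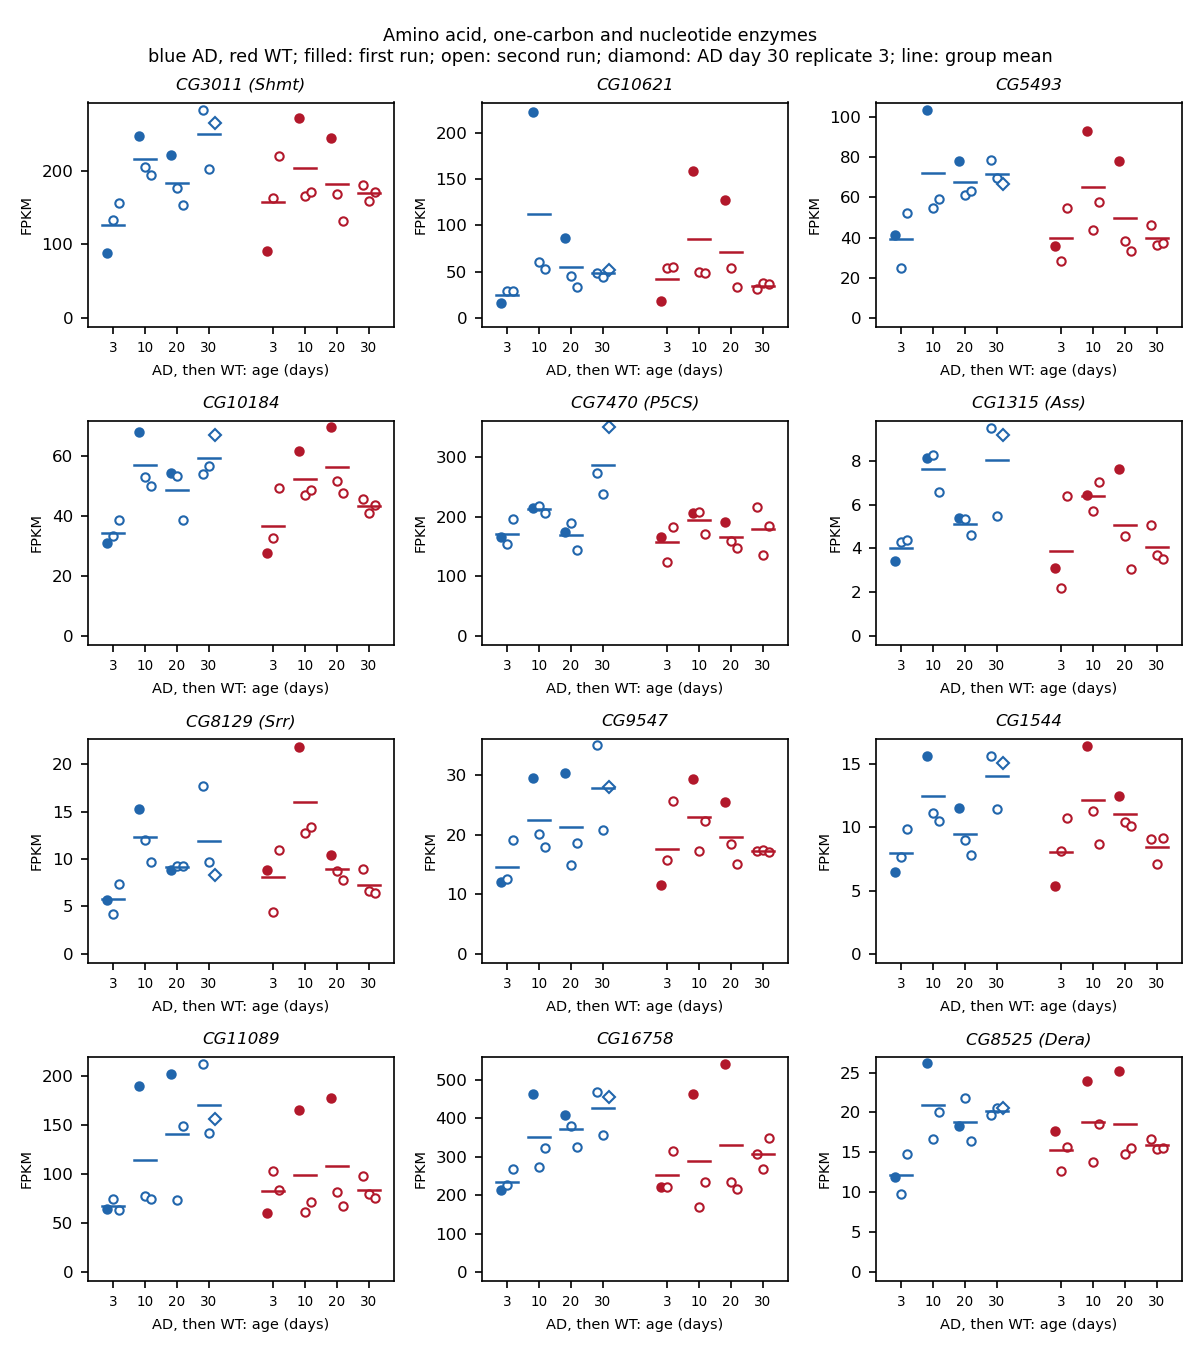
FPKM of the 12 enzymes in each library, AD (blue, left) and WT (red, right), by age in days, with a line at the group mean, filled points for the first processing run, open points for the second and a diamond for AD day 30 replicate 3. AD day 30 points lie above AD day 3 points in all 12 panels, and filled points are often the highest at days 10 and 20 in both genotypes.

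*CG11089* (3R:24877045-24881478) encodes the bifunctional enzyme of the last steps of purine synthesis, which forms inosine monophosphate. In AD heads, *CG11089* had 64.3, 74.95 and 63.5 FPKM at day 3, 190.2, 77.9 and 74.8 at day 10, 202, 72.96 and 149 at day 20 and 212, 142 and 156 at day 30. WT heads gave *CG11089* 59.8, 104 and 84.2 FPKM at day 3, 166, 61.4 and 71.02 at day 10, 178, 81.1 and 66.98 at day 20 and 98.1, 79.1 and 75.3 at day 30. All AD day 30 libraries were above all AD day 3 and WT day 30 libraries, and the first-run libraries of days 10 and 20 were high in both genotypes. *CG16758*, a purine nucleoside phosphorylase that splits nucleosides into base and sugar, had 357 to 468 FPKM at day 30 and 212 to 269 FPKM at day 3 in AD heads, against 268 to 348 and 222 to 316 FPKM in WT heads. *CG8525* (*Dera*), which splits deoxyribose phosphate, had 19.7 to 20.5 FPKM at day 30 and 9.77 to 14.8 FPKM at day 3 in AD heads, against 15.4 to 16.6 and 12.6 to 17.7 FPKM in WT heads. *CG16758* lay just inside the WT limit, with a WT difference of 0.29.

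*CG3011* (X:5913067-5916797), named *Shmt* in the current annotation, encodes serine hydroxymethyltransferase, which converts serine to glycine and loads a carbon unit on folate. In AD heads, *CG3011* had 87.9, 133 and 156 FPKM at day 3, 247, 205 and 195 at day 10, 221, 177 and 153 at day 20 and 283, 203 and 265 at day 30. WT heads gave *CG3011* 91.05, 163 and 220.4 FPKM at day 3, 272, 166 and 171 at day 10, 244, 168 and 132 at day 20 and 180.4, 158 and 172 at day 30. The AD day 30 values exceeded all AD day 3 values, and WT heads covered a wide range at day 3. *CG10184*, a threonine aldolase that yields glycine, had 53.9 to 66.9 FPKM at day 30 and 30.8 to 38.5 FPKM at day 3 in AD heads, against 40.9 to 45.6 and 27.5 to 49.4 FPKM in WT heads. *CG8129* (*Srr*, serine racemase) had 8.32 to 17.7 FPKM at day 30 and 4.18 to 7.35 FPKM at day 3 in AD heads, against 6.42 to 8.9 and 4.47 to 10.99 FPKM in WT heads, and its AD day 30 range overlapped with that of WT day 30.

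*CG10621* (2L:18952206-18954431) encodes a homocysteine S-methyltransferase, which makes methionine. In AD heads, *CG10621* had 16.4, 29.6 and 29.1 FPKM at day 3, 222, 60.7 and 52.5 at day 10, 86.5, 45.2 and 33.7 at day 20 and 48.6, 43.7 and 52.2 at day 30. WT heads gave *CG10621* 18.7, 53.5 and 54.7 FPKM at day 3, 159, 50.03 and 48.5 at day 10, 127, 54.1 and 33.1 at day 20 and 30.8, 37.4 and 36.5 at day 30. The day 10 and day 20 libraries of the first run exceeded all others in both genotypes, and the AD day 30 libraries were a narrow group above both the AD day 3 and the WT day 30 libraries. *CG5493* (2R:18616692-18619328) encodes cysteine dioxygenase, the first step of cysteine breakdown. In AD heads, *CG5493* had 41.2, 25 and 52.4 FPKM at day 3, 103, 54.6 and 59.1 at day 10, 78.3, 61.1 and 63.2 at day 20 and 78.7, 69.6 and 66.8 at day 30. WT heads gave *CG5493* 36.03, 28.4 and 54.5 FPKM at day 3, 93.3, 43.9 and 57.99 at day 10, 77.9, 38.5 and 33.5 at day 20 and 46.3, 36.1 and 37.3 at day 30. The AD day 30 libraries lay above those of AD day 3 and WT day 30. Of the exon bases of *CG5493*, 86.5% are shared with *CG5327* on the opposite strand, and no source used here says that counting used strand, so their reads cannot be told apart.

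*CG7470* (3L:21972002-21984606), *P5CS* in the current annotation, makes pyrroline-5-carboxylate, the precursor of proline and ornithine. In AD heads, *CG7470* had 166, 154 and 196 FPKM at day 3, 214, 218 and 207 at day 10, 173, 189 and 145 at day 20 and 273, 239 and 349.5 at day 30. WT heads gave *CG7470* 165, 123 and 183 FPKM at day 3, 206, 207 and 171 at day 10, 190.2, 159 and 147 at day 20 and 215, 135 and 185 at day 30. The AD day 30 libraries stood above all others in the study, with the highest value in the library labelled AD day 30 replicate 3. Without that library its AD difference was 0.58, under the limit. *CG1315* (3R:6642262-6644434), Ass in the current annotation, encodes argininosuccinate synthase, a step of arginine synthesis. In AD heads, *CG1315* had 3.44, 4.3 and 4.37 FPKM at day 3, 8.11, 8.26 and 6.57 at day 10, 5.37, 5.33 and 4.63 at day 20 and 9.48, 5.5 and 9.19 at day 30. WT heads gave *CG1315* 3.11, 2.19 and 6.41 FPKM at day 3, 6.45, 5.69 and 7.04 at day 10, 7.65, 4.56 and 3.05 at day 20 and 5.05, 3.68 and 3.52 at day 30. AD day 30 replicate 2 was close to the AD day 20 values and the other AD day 30 replicates were higher, and *CG31286* on the opposite strand shares 64.3% of its exon bases. *CG9547*, a glutaryl-CoA dehydrogenase of lysine and tryptophan breakdown, had 20.8 to 34.96 FPKM at day 30 and 12.02 to 19.1 FPKM at day 3 in AD heads, against 17.03 to 17.4 and 11.5 to 25.7 FPKM in WT heads. *CG1544*, a relative of the E1 subunit of 2-oxoglutarate dehydrogenase, had 11.4 to 15.6 FPKM at day 30 and 6.46 to 9.84 FPKM at day 3 in AD heads, against 7.12 to 9.18 and 5.32 to 10.7 FPKM in WT heads.

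At days 10 and 20, though not at day 3, the first-run library (replicate 1) was mostly the highest of its group for these 12 enzymes. Replicate 1 was the highest of the 3 replicates in 10 of 12 at AD day 10 and 10 of 12 at WT day 10. At day 20 it was the highest in 9 of 12 in AD and 12 of 12 in WT heads. In all 62 rising members the counts in these groups were 38, 40, 32 and 36. At day 3 replicate 1 was the highest in 0 of 12 enzymes in AD and 1 of 12 in WT heads. In all 62 rising members the day 3 counts were 17 and 31. The share over all genes was not taken for any of these counts. Head fat body markers summed to 5597 FPKM in AD day 10 replicate 1 and 7335 FPKM in WT day 10 replicate 1, above all other libraries. In the second run alone the median AD and WT differences between day 30 and day 3 were 0.75 and 0.02, and 10 of the 12 still met the rule. Without the library labelled AD day 30 replicate 3, 8 of the 12 did, and *CG10184*, *CG1544*, *CG7470* and *CG8525* had AD differences of 0.58 to 0.70 after rounding, under the limit of 0.7. *CG3011*, *CG9547*, *CG1315*, *CG16758*, *CG5493*, *CG10184* and *CG1544* no longer met the WT limit when WT day 3 replicate 3 was left out. Nor did *CG10621* without WT day 3 replicate 1 and *CG8129* without WT day 3 replicate 2. The part of fat body content in these values was not tested.

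Named genes of the same pathways were read from a list of 38 written after the members' values had been seen. In AD heads 14 of the 38 had a difference between day 30 and day 3 of at least 0.7 (background 8.95% of other genes) and 3 of at most -0.7 (background 5.62%, *slgA*, *Gdh* and *Gs2*, enzymes of proline, glutamate and glutamine). Both limits of the rule were met by 6 (*Nmdmc*, Hn, v, *Gart*, *Pfas* and *AdSL*), 5 of them also in the second run alone (background 0.887% in the rising direction). The counts were also 14, 3 and 6 without the library labelled AD day 30 replicate 3, with the same 6 genes. Hn and v begin the breakdown of phenylalanine and tryptophan, with AD differences of 0.73 and 0.74. *Gart*, *Pfas* and *AdSL* act before *CG11089* in purine synthesis and had AD differences of 1.2, 0.97 and 0.82, with WT differences of 0.14, -0.03 and 0.04. *Paics*, also of that pathway, had 1.40 in AD and 0.40 in WT heads, and *Prat*, which encodes a form of the first enzyme, had -0.01 and 0.08. *Prat2*, another purine gene of the list, had 0.245 in AD and -0.409 in WT heads. Its mean level was 112 FPKM, against 4.23 FPKM for *Prat*. *Nmdmc*, a folate cycle enzyme of mitochondria, had 1.02 in AD and -0.18 in WT heads. Other one-carbon genes were higher at day 30 in both genotypes, such as *Gnmt*, a glycine N-methyltransferase, with 3.66 in AD and 2.95 in WT heads. None of the 38 had an FDR under 0.05 in any of the 5 tests on days 10 and 20 described below.

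At days 10 and 20, the ages that did not choose the members, the 62 rising members lay only slightly higher in AD heads. The AD mean was above the WT mean in 43 of 62 at day 20 (69.4%, background 45.1%) and in 42 of 62 at day 10 (67.7%, background 53.3%). All AD libraries were above all WT libraries in 10 of 62 at day 20 (16.1%, background 4.45%) and 5 of 62 at day 10 (8.06%, background 3.39%), and below in 1 at each age. Among the 23 falling members the AD mean was below the WT mean in 14 at day 20 (60.9%, background 48.7%) and 10 at day 10 (43.5%, background 42.6%), with no overlap in 2 at day 20 (background 3.13%) and 1 at day 10 (background 1.78%). Expected counts, rounded to whole numbers, were tested with edgeR's quasi-likelihood test over the 8 groups, with a gene called at a Benjamini-Hochberg false discovery rate (FDR) under 0.05 and an absolute log2 fold change over 1. The filter on low counts kept 76 of the 85 members, 55 rising and 21 falling. In AD against WT heads at day 20, 0 members were called (10 of 10479 tested genes, 0.0954%) and 4 had an unadjusted p under 0.05 (background 4.43%). There the median log2 fold change was 0.20 in rising and -0.14 in falling members and 0.00038 in all tested genes. At day 10, 0 members were called in AD against WT heads (background 0.172%) and 4 had an unadjusted p under 0.05 (background 3.05%), with medians of 0.09 in rising and -0.0047 in falling members. DESeq2 called 1 member at each of these ages, *CG17732*.

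*CG17732* (3L:19981685-19984191) had the clearest difference between genotypes at the ages not used by the rule. The files and the reference give it no role. In AD heads, *CG17732* had 0.14, 0.06 and 0.19 FPKM at day 3, 0.86, 0.54 and 1.02 at day 10, 2.2, 1.84 and 2.16 at day 20 and 2.25, 2.04 and 0.45 at day 30. WT heads gave *CG17732* 0.05, 0 and 0.06 FPKM at day 3, 0.11, 0 and 0.03 at day 10, 0.06, 0 and 0.09 at day 20 and 0.19, 0 and 0.06 at day 30. AD libraries exceeded every WT library of the same age at days 10, 20 and 30, with WT values near 0, and AD values were higher at day 20 than at day 10 without overlap. The library labelled AD day 30 replicate 3 was the lowest of AD day 30, below all AD day 10 and day 20 libraries, yet above every WT library. At day 20 the expected counts behind these values were 164, 61 and 65 in AD heads, against 4, 0 and 3 in WT heads. The log2 fold change of AD against WT heads at day 20 was 5.16 ± 1.05 (SE, n = 3 each), with an FDR of 0.0549 in edgeR's quasi-likelihood test, just above 0.05, so it was not called. The gene was called with the replicate number as a block (5.34, edgeR FDR 0.0168), with the processing run as a covariate (5.21, edgeR FDR 0.0171), with DESeq2 (5.22, FDR 6.36e-06) and with limma on log2(FPKM + 1) (1.55, FDR 0.00394) and on log2(FPKM + 0.1) (3.90, FDR 0.00406). Leaving out each day 20 library in turn gave edgeR FDRs of 0.162 to 0.727. At day 10 the log2 fold change was 3.94 ± 1.02, with an edgeR FDR of 0.241.

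*CG32071*, *CG32074* and *CG14143* lie, in this order, within a short stretch of chromosome arm 3L (3L:11103421-11103873, 3L:11131883-11132322 and 3L:11134987-11135480), and no role is given for any of them. In AD heads, *CG14143* had 0, 0.18 and 1.34 FPKM at day 3, 0.87, 1.18 and 5.47 at day 10, 2.38, 4.46 and 4.2 at day 20 and 3.1, 2.75 and 0.57 at day 30. WT heads gave *CG14143* 0.47, 0.56 and 0.19 FPKM at day 3, 0.37, 0 and 0.64 at day 10, 0.41, 0 and 0 at day 20 and 0.61, 0 and 0.79 at day 30. AD libraries were above all WT libraries at days 10 and 20. The edgeR log2 fold change of AD against WT heads was 4.42 at day 20 (FDR 0.479, and 7.45 without WT day 20 replicate 1) and 2.83 at day 10, so it was not called. In AD heads, *CG32074* had 0, 0.42 and 0.9 FPKM at day 3, 1.05, 1.62 and 1.85 at day 10, 2.01, 4.82 and 1.98 at day 20 and 1.09, 2.79 and 1.12 at day 30. WT heads gave *CG32074* 0.56, 0 and 0.67 FPKM at day 3, 0.45, 0 and 0.25 at day 10, 1.79, 0.71 and 0.48 at day 20 and 0.48, 0.23 and 0.47 at day 30. AD values were the higher at days 10, 20 and 30, clear of all WT values at every one of these ages. In AD heads, *CG32071* had 0.03, 0.4 and 1.73 FPKM at day 3, 0.5, 1.33 and 1.33 at day 10, 0, 1.1 and 2.61 at day 20 and 2.7, 4.89 and 0 at day 30. WT heads gave *CG32071* 0 FPKM in all 3 libraries at day 3, 0 in all 3 libraries at day 10, 0.13, 0.68 and 0 at day 20 and 0 in all 3 libraries at day 30. *CG32071* was at 0 in all WT libraries of days 3, 10 and 30 and also in the library labelled AD day 30 replicate 3. That library was thus the lowest of AD day 30 for *CG14143* and *CG32071* and between the others for *CG32074*. Without it the AD differences between day 30 and day 3 were 1.48, 1.02 and 1.56 for *CG14143*, *CG32074* and *CG32071*, against 1.04, 0.88 and 0.82 with it.

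*CG18063* (2L:15957858-15959431) has no role in the files. In AD heads, *CG18063* had 0.1, 0.06 and 0.24 FPKM at day 3, 0.89, 0.44 and 0.79 at day 10, 1.26, 2.52 and 0.98 at day 20 and 2.37, 1.56 and 0.89 at day 30. WT heads gave *CG18063* 1.9, 0.12 and 0.12 FPKM at day 3, 0.11, 0.2 and 0.09 at day 10, 0.25, 0.32 and 0.25 at day 20 and 0.43, 0.69 and 0.06 at day 30. WT day 3 replicate 1 was the only WT library above 0.7 FPKM, and AD libraries exceeded all WT libraries at days 10, 20 and 30. At day 20 the edgeR log2 fold change of AD against WT heads was 2.90 (FDR 0.469). *CG2065* (2R:7663786-7665269) encodes a short-chain dehydrogenase like the mammalian retinol dehydrogenase RDH12. In AD heads, *CG2065* had 10.98, 6.02 and 7.66 FPKM at day 3, 7.1, 4.93 and 9.03 at day 10, 9.47, 9.27 and 26.4 at day 20 and 21, 17.3 and 16.3 at day 30. WT heads gave *CG2065* 12.7, 4.6 and 11.3 FPKM at day 3, 7, 8.68 and 8.04 at day 10, 6.18, 6.25 and 8.75 at day 20 and 8.81, 6.97 and 10.8 at day 30. AD day 20 replicate 3 was the highest library of all, and the other day 20 libraries of AD heads lay just above the day 10 range. Its edgeR log2 fold change was 1.14 in AD against WT heads at day 20 (FDR 0.672) and 1.09 in AD heads between day 20 and day 10 (FDR 0.574), with neither called. Without AD day 20 replicate 3 they were 0.37 and 0.32 (edgeR FDR of 1 for both).

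**Figure D4:**
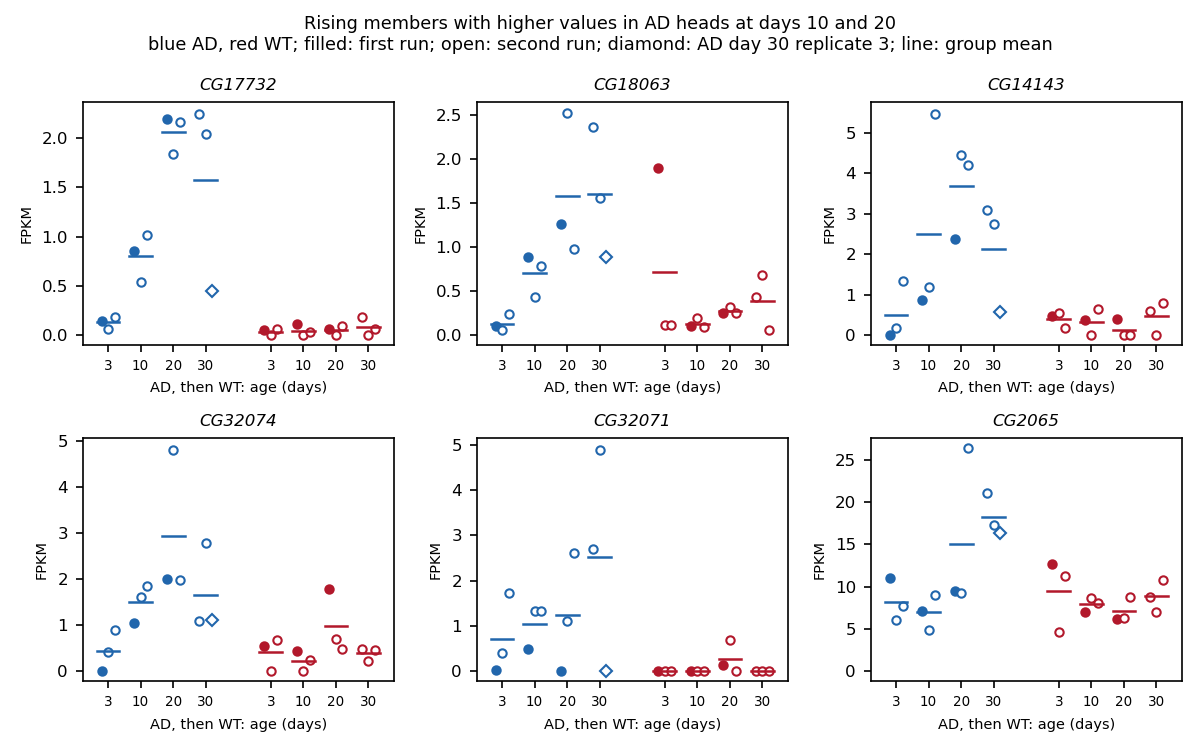
FPKM of CG17732, CG18063, CG14143, CG32074, CG32071 and CG2065 in each library, AD (blue, left) and WT (red, right), by age in days, with a line at the group mean and symbols for the runs and for AD day 30 replicate 3 as named in the title. AD day 20 libraries of CG17732 lie between 1.84 and 2.2 FPKM and WT day 20 libraries between 0 and 0.09 FPKM.

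Between day 10 and day 20 the members did not move as a group. In AD heads the day 20 mean was above the day 10 mean in 35 of 62 rising members (56.5%, background 51.1%), and below it in 14 of 23 falling members (60.9%, background 45.1%). The day 20 libraries were all above the day 10 libraries in 11 of 62 rising members (17.7%, background 6.99%) and all below in 3, and all below in 1 of 23 falling members (background 2.72%). The edgeR test of AD day 20 against AD day 10 called 0 members (background 0.315%), and 6 had an unadjusted p under 0.05 (background 6.49%). They were *CG43153*, *CG17664*, *CG2065*, *CG3165* and *CG42559* with higher values at day 20 and *CG43739* with lower values, and the lowest FDR among members was 0.292. In WT heads 0 members were called (background 0.0191%) and 2 had an unadjusted p under 0.05 (background 2.97%), and in the test of the difference between genotypes in this change 0 were called (background 0.0191%) and 3 had one (background 1.08%). DESeq2 called 0 members in these 3 comparisons. Its unadjusted p was under 0.05 in 9, 2 and 3 of 85 members, against 778, 382 and 161 of 13700 genes.

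*CG43153* (2L:11521765-11522776) had the largest AD difference between day 30 and day 3 of all rising members, 1.34, at a low level. In AD heads, *CG43153* had 0, 0 and 0.12 FPKM at day 3, 0.07, 0 and 0 at day 10, 0.27, 0 and 6.31 at day 20 and 2.15, 0.7 and 2.39 at day 30. WT heads gave *CG43153* 0.07, 0 and 0 FPKM at day 3, 0.22, 0.33 and 0 at day 10, 0.16, 0.37 and 0.6 at day 20 and 0 in all 3 libraries at day 30. AD day 20 replicate 3 was the highest of all libraries, and apart from it only the AD day 30 libraries exceeded 0.6 FPKM. *CG33137* (2R:13175395-13176075) rested on few libraries. In AD heads, *CG33137* had 0, 0.33 and 0.33 FPKM at day 3, 0.45, 0 and 1.32 at day 10, 1.13, 0.15 and 0 at day 20 and 4.53, 1.43 and 0 at day 30. WT heads gave *CG33137* 0, 0.93 and 0 FPKM at day 3, 0.6, 0.67 and 0 at day 10, 0, 1.85 and 0 at day 20 and 0.37, 0.13 and 0.43 at day 30. AD day 30 replicate 1 was the highest, and the gene was at 0 in the library labelled AD day 30 replicate 3. *CG13226* and *CG43112* lie 4.39 kb apart on 2R (2R:11244247-11245199 and 2R:11249594-11249933). In AD heads, *CG13226* had 0.1, 0.39 and 0.17 FPKM at day 3, 0.05, 0 and 0 at day 10, 0.58, 0.75 and 0.09 at day 20 and 0.77, 1.26 and 2.23 at day 30. WT heads gave *CG13226* 0.05, 0 and 0.34 FPKM at day 3, 0.73, 0 and 0.19 at day 10, 0.59, 0.09 and 0.26 at day 20 and 0.35, 0.17 and 0.34 at day 30. The library labelled AD day 30 replicate 3 had the highest value. In AD heads, *CG43112* had 0 FPKM in all 3 libraries at day 3, 0 in all 3 libraries at day 10, 0 in all 3 libraries at day 20 and 1, 0 and 3.32 at day 30. WT heads gave *CG43112* 0 FPKM in all 3 libraries at day 3, 0.23, 0 and 0 at day 10, 0 in all 3 libraries at day 20 and 0.72, 0 and 0 at day 30. *CG43112* was listed in only 4 libraries, and without the library labelled AD day 30 replicate 3 its AD difference was 0.50.

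*CG4398*, *CG2816* and *CG8097* remained members whichever of the 12 libraries of days 3 and 30 was left out, as did *CG11089*, *CG14143*, *CG17732* and *CG43153*, and no falling member did. *CG4398* (2R:16432244-16433183) has the symbol jtb in the current annotation. In AD heads, *CG4398* had 5.48, 3.43 and 5.34 FPKM at day 3, 8.46, 6 and 4.7 at day 10, 7.4, 5.17 and 8.17 at day 20 and 8.89, 11.9 and 8.58 at day 30. WT heads gave *CG4398* 6.51, 3.88 and 3.71 FPKM at day 3, 7.16, 5.88 and 4.39 at day 10, 5.83, 4.96 and 4.97 at day 20 and 7.57, 3.32 and 4.4 at day 30. All AD day 30 libraries were above all WT day 30 libraries. *CG2816* (2L:3703659-3704253) encodes a protein with an endopeptidase inhibitor annotation. In AD heads, *CG2816* had 6.89, 5.96 and 7.12 FPKM at day 3, 7.85, 6.44 and 14.9 at day 10, 7.92, 11.1 and 11.8 at day 20 and 13.1, 10.2 and 14.3 at day 30. WT heads gave *CG2816* 9.62, 6.39 and 10.7 FPKM at day 3, 8.66, 8.76 and 9.67 at day 10, 11.6, 7.27 and 9.9 at day 20 and 10.6, 10.4 and 8.37 at day 30. AD day 10 replicate 3 was the highest library, and WT values lay between 6.39 and 11.6 FPKM. *CG31778* on the opposite strand shares 27.3% of its exon bases. *CG8097* (X:15583159-15585249) carries an aminoacyl-tRNA ligase annotation. In AD heads, *CG8097* had 1.65, 1.62 and 1.51 FPKM at day 3, 3.7, 1.86 and 1.51 at day 10, 3.49, 3.06 and 2.86 at day 20 and 2.93, 3.61 and 3.95 at day 30. WT heads gave *CG8097* 2.98, 1.9 and 2.68 FPKM at day 3, 2.64, 2.07 and 1.81 at day 10, 2.53, 2.5 and 2.51 at day 20 and 3.27, 2.38 and 2.5 at day 30. AD values were clear of each other between days 20 and 3 as well as between days 30 and 3, and the day 30 ranges of AD and WT heads overlapped.

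Some members lay within 50 kb of another member on the chromosome, and other genes between them were not looked for. *CG42559* and *CG17664* lie 2.93 kb apart on 2R (2R:23599526-23600787 and 2R:23603722-23616754). *CG17664*, *Eglp2* in the current annotation, encodes an aquaporin-family channel. In AD heads, *CG42559* had 0 FPKM in all 3 libraries at day 3, 0.08, 0 and 0.08 at day 10, 0.31, 0.32 and 1.21 at day 20 and 1.1, 0.6 and 1.06 at day 30. WT heads gave *CG42559* 2.73, 0 and 0 FPKM at day 3, 0.11, 0 and 0 at day 10, 0.07, 0 and 0.19 at day 20 and 0.36, 0.62 and 1.05 at day 30. WT day 3 replicate 1 was the highest library, and without it the WT difference was 0.73. In AD heads, *CG17664* had 2.39, 2.07 and 2.08 FPKM at day 3, 2.29, 2.23 and 2.17 at day 10, 4.43, 2.84 and 3.82 at day 20 and 4.27, 4.81 and 4.04 at day 30. WT heads gave *CG17664* 3.87, 2.31 and 3.59 FPKM at day 3, 2.38, 2.05 and 2.34 at day 10, 3.58, 3.29 and 2.81 at day 20 and 3.83, 3.78 and 4.05 at day 30. The day 20 and day 30 libraries of AD heads were above all AD day 3 and day 10 libraries, and WT heads at day 30 had values close to those of AD heads. *CG42559* shares 87.9% of its exon bases with *CG42560* on the same strand.

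*CG12883* and *CG12428* lie 23.04 kb apart on 3R (3R:27679291-27680336 and 3R:27703379-27706751). *CG12428* encodes carnitine O-octanoyltransferase (CROT), which moves medium-chain fatty acids out of peroxisomes. In AD heads, *CG12428* had 15.8, 12.7 and 15.3 FPKM at day 3, 18.2, 17.5 and 16.6 at day 10, 19.8, 19.6 and 17 at day 20 and 25.98, 23.1 and 25.4 at day 30. WT heads gave *CG12428* 18.3, 12.4 and 16.7 FPKM at day 3, 17.5, 20.4 and 21.2 at day 10, 17.4, 17.99 and 14.7 at day 20 and 18.5, 18.5 and 17.4 at day 30. AD day 30 libraries formed a narrow group above every other library of the study. In AD heads, *CG12883* had 4.36, 4.77 and 4.54 FPKM at day 3, 8.28, 6.18 and 7.06 at day 10, 7.57, 6.4 and 7.38 at day 20 and 9.77, 9.67 and 7.15 at day 30. WT heads gave *CG12883* 5.64, 3.8 and 7.07 FPKM at day 3, 5.55, 6.69 and 6.9 at day 10, 5.89, 4.83 and 6.16 at day 20 and 6.85, 5.27 and 8.09 at day 30. AD day 30 replicates 1 and 2 were the highest libraries, and WT values overlapped with those of the other AD ages. *CG14183* lies near *CG17732* (3L:20024687-20027835). In AD heads, *CG14183* had 0.65, 0.98 and 0.96 FPKM at day 3, 3.01, 1.46 and 1.72 at day 10, 4.47, 2.09 and 2.05 at day 20 and 2.61, 2.45 and 1.57 at day 30. WT heads gave *CG14183* 5.26, 0.74 and 0.92 FPKM at day 3, 2.85, 1.31 and 1.43 at day 10, 3.86, 1.74 and 1.46 at day 20 and 1.15, 1.69 and 1.88 at day 30. Its highest value was in WT day 3 replicate 1, and the first run was high in both genotypes at days 10 and 20. *CG15169* lies near *CG10621* (2L:18991020-18992409). In AD heads, *CG15169* had 0.06, 0.61 and 0.44 FPKM at day 3, 0.2, 0.74 and 1.67 at day 10, 0.87, 1.51 and 2.38 at day 20 and 1.9, 2.4 and 0.22 at day 30. WT heads gave *CG15169* 0.29, 0.05 and 0.77 FPKM at day 3, 0.44, 0.32 and 1.17 at day 10, 0.19, 0.41 and 0.68 at day 20 and 0.63, 0.23 and 1 at day 30. The library labelled AD day 30 replicate 3 was low, and the AD difference was 1.22 without it and 0.76 with it. *CG14294* (3R:18901663-18902264), near the falling member *CG42613*, was listed at 0 in all AD day 3 libraries. In AD heads, *CG14294* had 0 FPKM in all 3 libraries at day 3, 1.22, 0 and 0.45 at day 10, 0.62, 0 and 0 at day 20 and 0.28, 0 and 2.47 at day 30. WT heads gave *CG14294* 7, 0 and 0 FPKM at day 3, 0.19, 0 and 0 at day 10, 0.63, 0.46 and 0.15 at day 20 and 0.62, 1.07 and 1.67 at day 30. Without the library labelled AD day 30 replicate 3 its AD difference was 0.18, and without WT day 3 replicate 1 its WT difference was 1.05.

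Tektin proteins stabilise the microtubules of cilia and sperm tails, and 3 tektin genes, *CG17450*, *CG32820* and *CG32819*, stand in a row on the minus strand of the X chromosome (X:21605884-21608920, X:21611797-21615239 and X:21617889-21621104). *CG17450* and *CG32819* were rising members and *CG32820* a falling one. In AD heads, *CG17450* had 0.87, 1.24 and 0.92 FPKM at day 3, 3.64, 2.71 and 1.46 at day 10, 3.69, 2.82 and 1.9 at day 20 and 3.29, 3.39 and 3.09 at day 30. WT heads gave *CG17450* 6.89, 1.7 and 1.71 FPKM at day 3, 2.53, 2.71 and 1.93 at day 10, 3.04, 2.44 and 2.4 at day 20 and 2.19, 1.76 and 3.14 at day 30. WT day 3 replicate 1 was the highest library. In AD heads, *CG32820* had 31.3, 2.18 and 0.2 FPKM at day 3, 19.1, 0.79 and 0.62 at day 10, 22.3, 0.99 and 1.26 at day 20 and 1.32, 1.41 and 1.14 at day 30. WT heads gave *CG32820* 19.1, 0.16 and 0.46 FPKM at day 3, 1.26, 0.45 and 0.81 at day 10, 15.5, 0.32 and 1.52 at day 20 and 2.4, 2.15 and 1.22 at day 30. All libraries above 3 FPKM belonged to the first run. In AD heads, *CG32819* had 0, 0.18 and 0.04 FPKM at day 3, 1.27, 0.79 and 0.62 at day 10, 1.21, 0.14 and 1.26 at day 20 and 0.88, 0.53 and 0.87 at day 30. WT heads gave *CG32819* 2.9, 0.16 and 0.46 FPKM at day 3, 1.26, 0.45 and 0.81 at day 10, 1.32, 0.32 and 0.65 at day 20 and 0.77, 0.64 and 0.93 at day 30. *CG32819* and *CG32820* have the same protein match in the files and equal values in several libraries. The summed FPKM of the 3 genes reached 5.05 to 32.2 in first-run and 1.16 to 5.49 in second-run libraries. The difference of the summed level between day 30 and day 3 was -0.13 in AD and -0.19 in WT heads, and in the second run alone 1.0 and 0.87. The split of reads between such copies is uncertain, and so are the opposite directions of *CG32820* and its neighbours.

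The other rising members with a role were few in each class. *CG8549* (*Sbds*), a ribosome maturation factor, had 24.3 to 30.2 FPKM at day 30 and 14 to 17.7 FPKM at day 3 in AD heads, against 19.02 to 21.3 and 15.9 to 21.4 FPKM in WT heads. *CG3829*, a scavenger receptor of class B that takes up lipids, had 40.2 to 47.6 FPKM at day 30 and 21.6 to 26.9 FPKM at day 3 in AD heads, against 24.1 to 29.2 and 19.2 to 31.8 FPKM in WT heads. *CG3165*, like the mammalian TREX1 a DNA exonuclease by annotation, had 14.4 to 14.8 FPKM at day 30 and 6.08 to 10.1 FPKM at day 3 in AD heads, against 10.2 to 14.1 and 8.81 to 12.1 FPKM in WT heads. *CG3570* (*Samtor*), a sensor of S-adenosylmethionine in the TOR pathway, had 15.7 to 18.2 FPKM at day 30 and 9.48 to 11.4 FPKM at day 3 in AD heads, against 12.2 to 14.9 and 10.3 to 12.5 FPKM in WT heads. In these 4, named for their roles, the AD day 30 range lay above that of WT day 30, as it did in 30 of all 62 rising members (background 10.1%). *CG18609*, related to fatty acid elongase ELOVL4, had 2.93 to 5.77 FPKM at day 30 and 0 to 4.11 FPKM at day 3 in AD heads, against 1.35 to 4.19 and 0.08 to 14.2 FPKM in WT heads, and its highest value was in WT day 3 replicate 1. The most abundant rising member was *CG13315*, with 620.2 to 919 FPKM at day 30 and 264 to 526 FPKM at day 3 in AD heads, against 503 to 666 and 332 to 683 FPKM in WT heads. No role was found in the files for 35 of the 62, and 20 of the 62 had a mean level under 1 FPKM.

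Among the falling members *CG13428* (2R:20539512-20540448) stood apart with an AD difference of -3.39, and neither the files nor the reference give it a role. In AD heads, *CG13428* had 18.4, 47.1 and 26.4 FPKM at day 3, 3.86, 59.8 and 41.95 at day 10, 34.3, 19.1 and 56.1 at day 20 and 3.03, 0.2 and 3.62 at day 30. WT heads gave *CG13428* 35.8, 33.02 and 48.3 FPKM at day 3, 2.24, 14.2 and 140.3 at day 10, 8.62, 82.4 and 45.6 at day 20 and 45.99, 43.4 and 51.4 at day 30. All AD day 30 libraries lay below all AD day 3 and WT day 30 libraries, and the first-run libraries of day 10 were low in both genotypes, close to the AD day 30 values. *CG17290* (2R:17154589-17157125) came next with -1.72. In AD heads, *CG17290* had 2.01, 2.2 and 3.69 FPKM at day 3, 1.94, 2.31 and 1.16 at day 10, 0.86, 2.07 and 0.99 at day 20 and 0, 0.27 and 0 at day 30. WT heads gave *CG17290* 0.98, 0.66 and 2.22 FPKM at day 3, 1.78, 1.08 and 1.01 at day 10, 2.43, 0.23 and 3.33 at day 20 and 0.48, 1.62 and 0.94 at day 30. The AD day 30 libraries were at or near 0 and all below the AD day 3 and WT day 30 libraries. *CG17287* on the opposite strand shares 24.2% of its exon bases.

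*CG15704* (2R:16280015-16280470), prim in the current annotation, had an AD difference of -1.05. In AD heads, *CG15704* had 16.5, 24.7 and 29.8 FPKM at day 3, 19.1, 21.8 and 20.2 at day 10, 10.8, 12.8 and 27.5 at day 20 and 7.2, 12.3 and 13.1 at day 30. WT heads gave *CG15704* 14.5, 16.2 and 24.5 FPKM at day 3, 15.2, 20.3 and 32.4 at day 10, 13.4, 21.5 and 14.9 at day 20 and 22.8, 17.6 and 19.8 at day 30. AD day 30 libraries were all below those of AD day 3 and WT day 30. *CG13999* (2L:5955312-5956466) had its files' best match in a transmembrane protein of the ciliary transition zone (TMEM216). In AD heads, *CG13999* had 19.7, 24.7 and 20.1 FPKM at day 3, 17.6, 21.1 and 16.7 at day 10, 10.3, 17.4 and 13.8 at day 20 and 12.3, 11.5 and 9.99 at day 30. WT heads gave *CG13999* 21.98, 22.7 and 13.8 FPKM at day 3, 17.7, 18.6 and 21.4 at day 10, 12.4, 19.7 and 19.9 at day 20 and 14.5, 17.2 and 15.6 at day 30. AD values of day 30 lay below all values of AD day 3 and WT day 30, and the first-run libraries of day 20 were low in both genotypes. *CG14946* (2L:12063457-12066775), firl in the current annotation, is annotated as a retinol dehydrogenase. In AD heads, *CG14946* had 34.7, 19.2 and 19.5 FPKM at day 3, 10.9, 11.8 and 14.5 at day 10, 8.11, 11.7 and 20.04 at day 20 and 9.91, 14.7 and 9.31 at day 30. WT heads gave *CG14946* 28.01, 12.93 and 21.6 FPKM at day 3, 9.76, 12.9 and 16.4 at day 10, 8.88, 15.6 and 18.3 at day 20 and 15.3, 17.2 and 21.3 at day 30. AD day 30 libraries were all below those of AD day 3 and WT day 30, and the day 10 libraries of both genotypes were already below those of AD day 3.

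*CG42613* (3R:18929196-18978088) spans a large region of 3R and matches cubilin, an endocytic receptor, in the files. In AD heads, *CG42613* had 51.6, 80.1 and 67.95 FPKM at day 3, 84.2, 62.6 and 55.4 at day 10, 88.2, 54.1 and 42.7 at day 20 and 32.2, 29.6 and 49.1 at day 30. WT heads gave *CG42613* 69.97, 78.7 and 55.4 FPKM at day 3, 82.9, 72.3 and 56.6 at day 10, 84.2, 56.04 and 62.5 at day 20 and 65.5, 50.01 and 51.4 at day 30. AD day 30 replicates 1 and 2 were the lowest libraries, and the library labelled AD day 30 replicate 3 was just below the WT day 30 range. Of its exon bases 63.2% are shared with *CG43732* on the same strand. *CG43739* (2L:20871335-20918931) lies with all its exon bases inside exons of sky (skywalker, a regulator of synaptic vesicle traffic), so its values depend on how RSEM divided the reads between them. In AD heads, *CG43739* had 1.35, 1.81 and 1.43 FPKM at day 3, 3.14, 2.35 and 2.16 at day 10, 1.57, 1.47 and 0.97 at day 20 and 0.24, 0.11 and 0.52 at day 30. WT heads gave *CG43739* 1.5, 2.54 and 0.51 FPKM at day 3, 2.56, 2 and 1.14 at day 10, 1.83, 2.62 and 2.03 at day 20 and 2.2, 1.05 and 1.1 at day 30. All AD day 30 libraries were below all other libraries of both genotypes except WT day 3 replicate 3. The edgeR log2 fold change of *CG43739* in AD heads between day 20 and day 10 was -0.98, with an FDR of 0.76. *CG33946* (3L:6220578-6220949) varied widely. In AD heads, *CG33946* had 14.2, 12.7 and 15.8 FPKM at day 3, 3.04, 10.7 and 15.8 at day 10, 5.23, 21.7 and 9.08 at day 20 and 2.77, 13.2 and 7.75 at day 30. WT heads gave *CG33946* 22.4, 6.43 and 19.9 FPKM at day 3, 8.19, 6.68 and 18.7 at day 10, 16.3, 17.8 and 6.72 at day 20 and 11.4, 11.03 and 18.1 at day 30. AD day 30 replicate 2 lay within the AD day 3 range, so the ages overlapped.

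*CG13905* (3L:902898-903810), mat in the current annotation, and *CG32023* (3L:8803602-8804182) rested on AD day 3 replicate 2. In AD heads, *CG13905* had 0, 10.3 and 0 FPKM at day 3, 0.06, 0.09 and 0.09 at day 10, 0.05, 0 and 0.1 at day 20 and 0.33, 0 and 0 at day 30. WT heads gave *CG13905* 0.37, 0 and 0.09 FPKM at day 3, 0, 0 and 0.2 at day 10, 0 in all 3 libraries at day 20 and 0 in all 3 libraries at day 30. Only AD day 3 replicate 2 was above 0.4 FPKM. In AD heads, *CG32023* had 0.41, 3.6 and 0 FPKM at day 3, 0 in all 3 libraries at day 10, 0 in all 3 libraries at day 20 and 0 in all 3 libraries at day 30. WT heads gave *CG32023* 0.87, 0 and 0 FPKM at day 3, 0 in all 3 libraries at day 10, 0 in all 3 libraries at day 20 and 0, 0 and 0.36 at day 30. *CG32023* was at 0 in all AD libraries after day 3. Gut markers summed to 586.8 FPKM in AD day 3 replicate 2, above all other libraries, and their part in these values was not tested. *CG5984* and *CG3348* lie 43.5 kb apart on 3R (3R:27246403-27247992 and 3R:27291535-27292209), and *CG3348* carries a carbohydrate binding annotation. In AD heads, *CG5984* had 1.36, 1.38 and 1.95 FPKM at day 3, 1.55, 0.81 and 1.49 at day 10, 1.25, 0.82 and 0 at day 20 and 0.02, 0 and 0.97 at day 30. WT heads gave *CG5984* 1.4, 2.61 and 1.3 FPKM at day 3, 0.71, 1.59 and 0.22 at day 10, 0.97, 0.94 and 1.57 at day 20 and 1.76, 0.97 and 1.28 at day 30. AD day 30 libraries were all below those of AD day 3, and the library labelled AD day 30 replicate 3 reached the lowest WT day 30 value. In AD heads, *CG3348* had 66.04, 32.95 and 19.02 FPKM at day 3, 13.6, 12.3 and 13.02 at day 10, 21.6, 9.3 and 19.5 at day 20 and 13.9, 18.5 and 26.1 at day 30. WT heads gave *CG3348* 30.8, 18.3 and 15.6 FPKM at day 3, 16.9, 16.8 and 12.02 at day 10, 26, 23.3 and 28.6 at day 20 and 20.04, 28.9 and 22.6 at day 30. *CG3348* was highest in AD day 3 replicate 1 and its day 30 ranges overlapped between genotypes. *CG14757*, an assembly factor of succinate dehydrogenase in mitochondria, had 57.9 to 64.6 FPKM at day 30 and 102 to 123 FPKM at day 3 in AD heads, against 81.5 to 96.6 and 92.4 to 113 FPKM in WT heads and was the most abundant falling member.

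**Figure D5:**
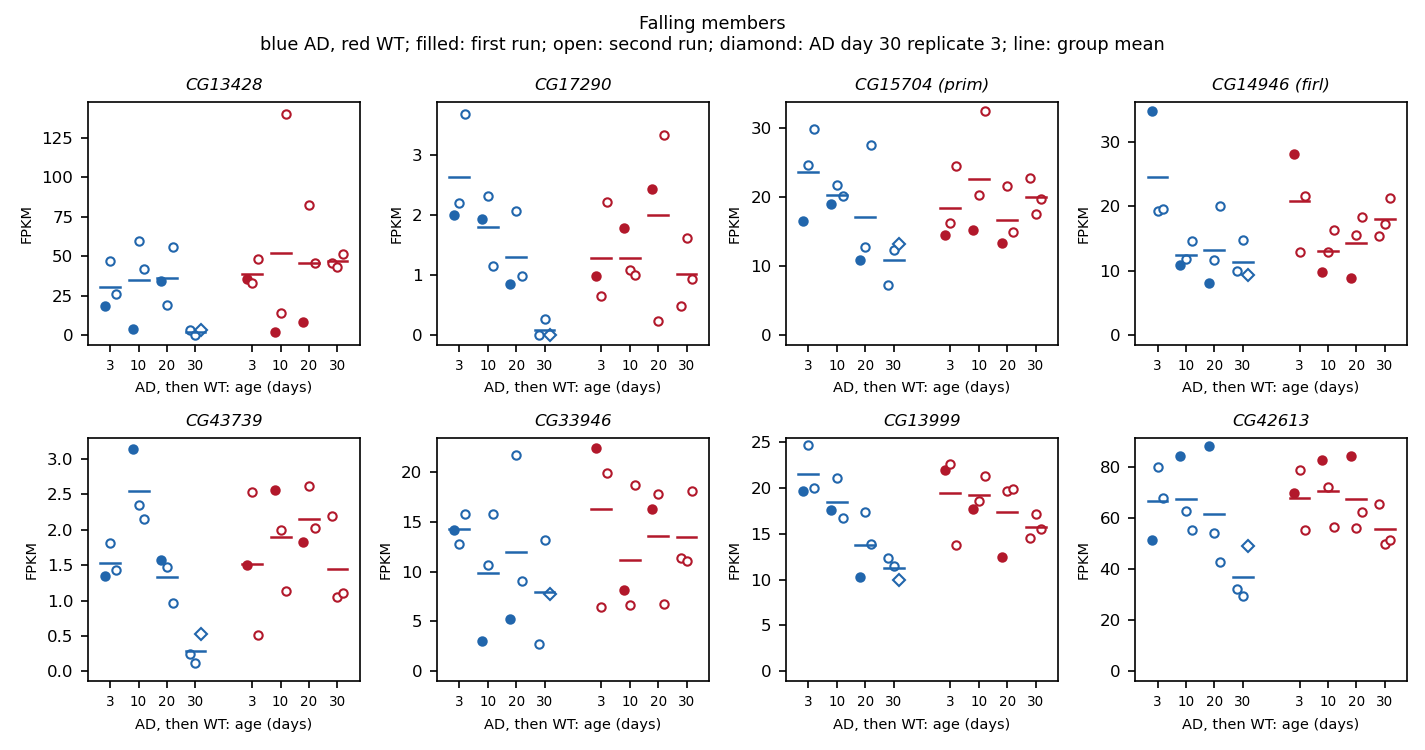
FPKM of 8 falling members in each library, AD (blue, left) and WT (red, right), by age in days, with a line at the group mean, filled points for the first processing run, open points for the second and a diamond for AD day 30 replicate 3. CG13428 has 0.2 to 3.62 FPKM in AD day 30 libraries and 43.4 to 51.4 FPKM in WT day 30 libraries.

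Membership depended on single libraries. Without the library labelled AD day 30 replicate 3 there were 123 members, 88 rising and 35 falling, of which 76 (54 rising and 22 falling) were among the 85. Without WT day 3 replicate 1 there were 175, with 58 of the 85 among them, and without AD day 3 replicate 1 133, with 65 of the 85. The fewest of the 85 were kept without WT day 3 replicate 3, 50 (38 rising and 12 falling), although 77 genes then met the rule. In the second run alone 210 genes met the rule, 80 rising and 130 falling, with 47 of the 85 among them, 1 of which changed direction. Both without AD day 30 replicate 3 and in the second run alone 41 of the 85 met it, 28 rising and 13 falling. On TMM-scaled CPM 77 genes met the rule, with only 46 of the 85 among them, 31 rising and 15 falling. All 62 rising members were above 0 and all 23 falling members below 0 on that scale in AD heads between day 30 and day 3 (medians 0.73 and -0.93), while the median over all tested genes was 0.12 on the FPKM and 0.02 on the TMM scale. Genes on either side of a limit were close in value. *CG12698* and *CG13716* lay just inside the AD limit with differences of 0.703 and 0.704, and *CG5096* and *CG34445* just outside with 0.698 and 0.695. At the WT limit *CG16758* and *CG17802* were inside with 0.294 and 0.286, and *CG43210* and *CG9686* outside with 0.306 each.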

How the data were processed

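RNA-Seq of male fly heads gave 24 libraries, 3 replicates in each of 8 groups, with group and replicate number as labelled. The authors filtered the reads, mapped them with HISAT 2.0.4 to release 6 of the fly genome and deposited expected counts from RSEM, without any normalization. The deposited FPKM are those estimates after scaling by effective gene length and library size. Bowtie2 is also named in the submitters' processing notes, and whether counting used strand is not given in the sources used here. A gene not listed in a library was taken as 0, and genes of the authors' own numbering and the transgene were not used here.

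Members were found with a pseudocount of 1 on FPKM, which makes differences of genes near 0 FPKM small. Rounded expected counts were fitted with edgeR 4.0.16 in R 4.3.3 (TMM, filterByExpr, 8 groups, no covariate, common biological coefficient of variation 0.326), and 10479 genes were tested at a Benjamini-Hochberg FDR under 0.05 and an absolute log2 fold change over 1. DESeq2 1.42.0, limma 3.58.1 and Python 3.11.15 served for alternatives and tables, and the fits were tested on simulated data. The lowest and highest total of 12796861 and 26463849 expected counts bound the depth, amplified reads are not independent molecules, and counting error is large for members under 1 FPKM.

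The members, gene lists and tests were chosen with earlier results of these data known. Genes with values in every library were the 10 rising and 10 falling members with the largest AD difference that also met the rule without AD day 30 replicate 3 and in the second run alone. Also given were any member under the FDR limit (there was none in edgeR), members within 50 kb of another member and gene copies. Genes next to the limits were given by their differences only. CG4398, CG2816, CG8097 and the enzymes were added after their values were seen. Same-numbered AD and WT libraries of days 10 and 20 deviated together (correlations of 0.319 to 0.805 in 6 pairs). So did same-numbered day 20 and day 10 libraries of a genotype (0.18 to 0.783 in 6 pairs). At days 10 and 20, AD and WT libraries of replicates 2 and 3 with different numbers had correlations of 0.17 to 0.46. Replicate 1 had -0.65 to -0.32 with replicates 2 and 3 of the other genotype. The main tests did not pair libraries, and pairing by replicate number, as a block, was an alternative only. Between same-numbered AD and WT libraries of day 30 the correlations were -0.113 to 0.0462. The pairing comes from the numbers in the labels, and the shared run of replicate 1 moves with it. No pair of replicates was a library deposited again (chi-square per gene of 9.2 to 410 in 24 pairs). Positions are those of the release 6 annotation, in which all 85 members were found. Comparisons used the members' own libraries, and no sequence was printed.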

Additional observations from a re-analysis of the deposited data

How the results depend on the processing

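The 85 members became 223 with log2(FPKM + 0.1), with 59 of the 85 among them, and 210 in the second processing run alone. Leaving out each library in turn gave 77 to 175 members, with 133 without AD day 3 replicate 1, 128 without AD day 3 replicate 3 and 175 without WT day 3 replicate 1. The 77 without WT day 3 replicate 3 held only 50 of the 85. With a mean of at least 1 FPKM there were 60, with the log2 of the group mean 91, on TMM-scaled CPM 77 (46 of the 85 among them) and without AD day 30 replicate 3 123. Between day 10 and day 20 in AD heads 49 of the 85 moved in the direction of their day 30 difference, and 44 to 61 did when each library was left out in turn. Without AD day 30 replicate 3 it was 82 of the then 123 members.

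Of the 5 edgeR tests, 3 called 0 members under every alternative run. In AD against WT heads at day 20, 1 member (CG17732) was called with DESeq2, with the replicate number as a block, with the processing run as a covariate and with limma on both FPKM scales, and leaving out each library in turn gave 0. At day 10, 1 was called with DESeq2. Taking the replicate number as a block changed no other call. A fit without AD day 30 replicate 3 in the shared spread, chosen after seeing the data, called 0 members in all 5 tests. The cause of these shifts was not tested. Depth limits the 20 rising and 5 falling members under 1 FPKM.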
